A study of Homo sapiens with 6 samples.

Results

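BxPC-3 is an established epithelial cell line from a human pancreatic ductal adenocarcinoma, the common cancer of the exocrine pancreas. Poly(A) RNA sequencing of the untreated line (group Parent, no treatment) was described here from its 2 libraries, Parent 1 and Parent 2, out of 6 in the series. The other 4 libraries, of BxPC-3 cells in the groups NC-1 and miR-4711-5p, were not analysed here. The 2 libraries were taken by their group label. The line descends from a single tumour, and nothing in the labels says whether the 2 libraries came from separate cultures, so the spread between them may be technical. No comparison between groups was made and no test was run, and every value below is a description. Levels are FPKM, the fragments per kilobase of exon scaled to the mapped fragments of the library, which allow genes of different length to be set side by side. Pairs of values are given in the order Parent 1 and Parent 2, and ± is the SD over n = 2 libraries.

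Duct-derived carcinoma cells keep the keratins and adhesion molecules of a simple glandular epithelium, and may add the keratins, S100 proteins and transcription factors of a stratified squamous epithelium. Tumours of this organ are therefore often placed between a "classical" type, with gut-like and gland-like genes, and a "basal-like" type, with squamous-like genes. Losses of CDKN2A, which restrains cyclin-dependent kinases, and of SMAD4, the common partner in transforming growth factor beta (TGF-beta) signalling, are frequent in this cancer, and BxPC-3 is known to have lost both genes.

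Each library listed the same 26255 gene symbols. A mean of at least 1 FPKM was reached by 11876 symbols (45.2%), a mean of at least 10 FPKM by 6606 (25.2%), and 8731 (33.3%) were listed at 0 in both libraries. Mean levels at or over 1000 FPKM were found for 85 symbols. Of 18965 symbols that RefSeq gives as protein-coding, 11101 (58.5%) reached 1 FPKM, against 375 of 2922 long non-coding RNAs and 7 of 1807 miRNA genes. The median level was 0.390 FPKM over all symbols and 3.25 FPKM over the protein-coding ones. Counts of list members below are to be read beside these shares.

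Agreement between the libraries depended on the level. The median ratio of the higher to the lower library was 1.03-fold for symbols at or over 1000 FPKM, 1.05-fold between 10 and 100 FPKM, 1.09-fold between 1 and 10 FPKM, and 1.37-fold between 0.1 and 1 FPKM. Below 0.1 FPKM, 58.3% of the 2645 symbols with any signal were at 0 in a single library. Across the 11876 symbols at or over 1 FPKM, Pearson's r of log2(FPKM + 1) was 0.988, a correlation across genes and not across replicates. Low values fell on steps: among 893 symbols above 0 and under 0.1 FPKM in both libraries, the most common ratio of Parent 2 to Parent 1 was 1.15 (32.0% of them within 0.01). A step ratio of this size corresponds to a depth of Parent 2 of 0.873 of that of Parent 1. Levels under 1 FPKM are therefore read below as low, and not ranked.

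**Figure D1:**
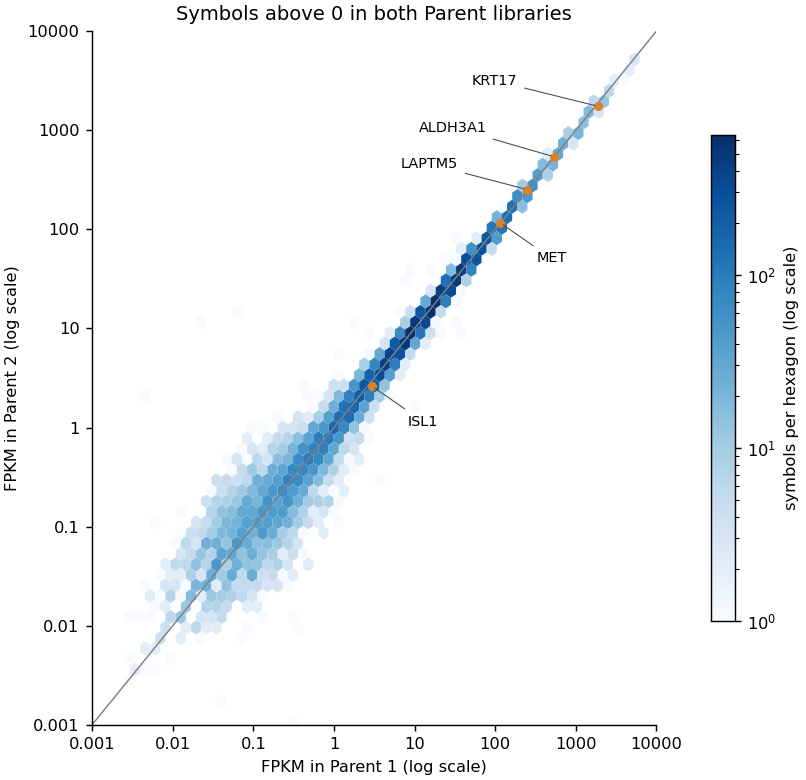
Levels in Parent 1 (x axis, FPKM, log scale) against Parent 2 (y axis, FPKM, log scale) for every symbol above 0 in both; colour gives the number of symbols per hexagon, and the grey line marks equal levels. The cloud was narrow above 1 FPKM and widened below it, with a median ratio of the libraries of 1.37-fold between 0.1 and 1 FPKM.

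The largest differences above 10 FPKM lay in short RNAs. Of 18 symbols over 10 FPKM that were at least 2-fold apart or at 0 in a single library, 17 were annotated snoRNA or miRNA genes and 0 were protein-coding. The remaining symbol, MIR4461, another miRNA gene name, was listed at 0 and 164 FPKM. Among protein-coding symbols DEFB1, an epithelial antimicrobial peptide, differed most, at 14.5 and 7.91 FPKM (1.83-fold). It was followed by GPALPP1 at 8.74 and 13.5 FPKM (1.54-fold) and S100A3 at 10.1 and 15.5 FPKM (1.54-fold).

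The highest transcripts came from the translation machinery. RPL41, a protein of the large ribosomal subunit, stood at 5296 and 5206 FPKM, and RPLP1, an acidic protein of the ribosomal stalk, at 5361 and 4930.4 FPKM. GAPDH, a glycolytic enzyme, stood at 5079 and 4991 FPKM, below RPL41 in both libraries. The range of RPLP1 overlapped both of the others, and it was not ordered against them. TMSB4X, the actin-binding peptide thymosin beta-4, followed at 4249 and 4155 FPKM. Ribosomal proteins filled 19 of the 30 highest places and 19.02% of all FPKM. The 10 highest symbols held 7.12% and 6.99% of the summed FPKM, the 100 highest 30.6% and 30.4%, and the 1000 highest 65.3% and 64.9%, so that the 2 libraries gave nearly the same concentration of signal. In 21 of the 29 neighbouring pairs among the 30 highest symbols the ranges of the libraries overlapped.

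Some high values belong to gene copies. RPL13AP5, a pseudogene of RPL13A, was listed at 2124 and 2009 FPKM and RPL13A itself at 422 and 436 FPKM. H3F3AP4, a pseudogene of the histone gene H3F3A, was listed at 396 and 395 FPKM, while H3F3A had 0.0257 and 11.04 FPKM. RPL21P28 stood at 1087 and 1200.3 FPKM and RPL21 at 291 and 232 FPKM. How reads were shared between such near-identical sequences is not given in the sources used here, and the values for copy and parent gene are uncertain.

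**Figure D2:**
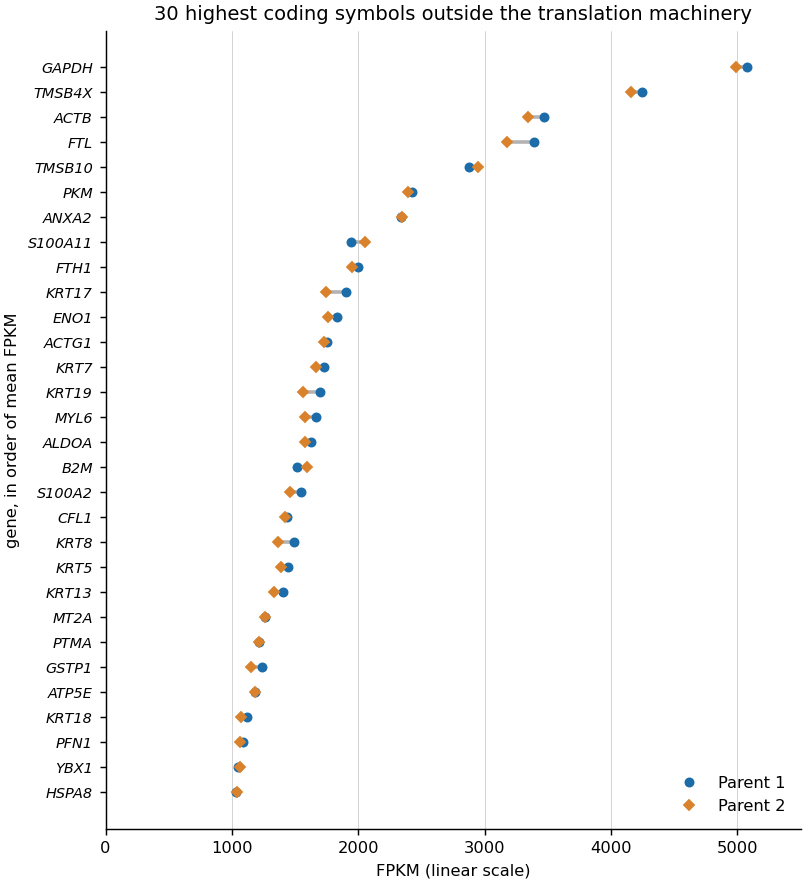
Levels (x axis, FPKM, linear scale from 0) of the 30 highest protein-coding symbols outside ribosomal proteins and translation factors (y axis, in order of mean); circles are Parent 1, diamonds Parent 2, and bars join them. GAPDH led, KRT17 was the highest of 7 keratins shown, and the ranges of 14 of 29 neighbouring pairs overlapped.

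Outside translation, the 30 highest protein-coding symbols combined cytoskeleton, iron storage, glycolysis and epithelial genes. Actin and its partners were represented by ACTB at 3473 and 3344 FPKM, TMSB10 at 2876 and 2944 FPKM, CFL1 (cofilin, which severs actin filaments) at 1437 and 1419.6 FPKM and PFN1 (profilin, which loads actin monomers) at 1087 and 1064 FPKM. The light and heavy chains of the iron store ferritin, FTL and FTH1, stood at 3393 and 3173 FPKM and 1998 and 1949 FPKM. ACTB and FTL overlapped and were not ordered. ANXA2, a calcium-dependent membrane-binding protein, and its relative in calcium binding S100A11 stood at 2335 and 2345 FPKM and 1945 and 2055 FPKM. MT2A, a metallothionein that binds zinc and copper, was at 1265 and 1265 FPKM, and GSTP1, a glutathione transferase, at 1234 and 1148 FPKM. The glycolytic enzyme TPI1 at 1025 and 999 FPKM and the water and glycerol channel AQP3 at 1027 and 985 FPKM came next after the 30 and were not ordered.

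Keratins, the intermediate filaments of epithelia, were the leading tissue-restricted group. KRT17, a keratin of basal and wounded stratified epithelia (chr17:39775694-39781094, minus strand, GRCh37), was the highest of the family at 1899.5 and 1745 FPKM (1822 ± 109). The simple-epithelium type II keratin KRT7 (chr12:52626304-52645970, plus strand) stood at 1725 and 1663 FPKM, and its duct-cell partner KRT19 at 1699.6 and 1559 FPKM, with ranges that overlapped. The general glandular pair KRT8 and KRT18 stood at 1493 and 1361 FPKM and 1116 and 1070.1 FPKM. KRT5, the type II keratin of the basal layer (chr12:52908359-52914314, minus strand), stood at 1445 and 1391 FPKM, and KRT13, the type I keratin of non-cornified mucosa (chr17:39657233-39661957, minus strand), at 1405 and 1335 FPKM. Keratins of the simple and of the stratified programme therefore lay in the same range, and KRT8, KRT5 and KRT13 were not ordered by these libraries. The 8 keratins at or over 100 FPKM held 99.1% of the keratin signal, and all 8 were lower in Parent 2, by a ratio of 0.911 to 0.964.

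The keratin pairs were uneven. KRT6A, a wound and hair-follicle keratin, stood at 694 and 659.7 FPKM, but KRT16, with which it usually pairs, at 1.15 and 1.09 FPKM. KRT14, the usual partner of KRT5, stood at 2.47 and 2.69 FPKM. KRT4, the usual partner of KRT13, stood at 43.02 and 40.2 FPKM, and KRT15, another basal keratin, at 31.2 and 31.2 FPKM. Of the 22 stratified keratins listed, 10 reached 1 FPKM, a share near the 45.2% of all symbols and under the 58.5% of protein-coding ones. KRT1 and KRT2 of cornified epidermis were listed at 0 in both libraries. Of the 7 simple keratins, 6 reached 1 FPKM, and the gut keratin KRT20 was listed at 0. KRT6A, KRT6B and KRT6C are close copies, as are parts of KRT14, KRT16 and KRT17, and the splitting of reads among them was not tested.

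The epithelial and cell-cell junction genes of 1 list were measured throughout. The list also held epithelial genes that are not junction parts, such as SPINT2, ST14, ELF3, GRHL2, ESRP1 and ESRP2. All 33 listed members reached 1 FPKM, 31 reached 10 FPKM, and their median was 73.1 FPKM, where 45.2% of all symbols reached 1 FPKM. SPINT2, an inhibitor of membrane serine proteases, led the list with 535 and 519 FPKM. Plakoglobin (JUP), which links cadherins to both junction types, stood at 229.7 and 211 FPKM, and the adherens junction catenins CTNND1 and CTNNB1 at 196 and 198 FPKM and 163 and 161 FPKM. CDH1, the epithelial cadherin used to check the epithelial label, stood at 114 and 117 FPKM beside CDH3, the placental cadherin of basal cells, at 73.7 and 71.6 FPKM. Desmosomal cadherins ranged from DSG2 at 144 and 146 FPKM to DSC2 at 4.26 and 4.10 FPKM, and included DSG3 and DSC3 of stratified epithelium at 19.5 and 20.5 FPKM and 25.6 and 26.7 FPKM. The tight junction claudins CLDN4 and CLDN7 stood at 119.8 and 110.0 FPKM and 116 and 111 FPKM, while occludin (OCLN) was the lowest member at 2.46 and 2.57 FPKM. The defining markers of the epithelial label were thus all measured.

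Squamous genes were present in part. TP63, the master factor of stratified epithelia, stood at 60.2 and 67.1 FPKM, and SOX2, which often accompanies it in squamous cancers, at 11.4 and 10.97 FPKM. SPRR1B, a small proline-rich envelope precursor, led the list at 166 and 151 FPKM, followed by the surface protein LY6D at 89.4 and 87.5 FPKM. The list had 19 of 24 members at or over 1 FPKM, with a median of 2.98 FPKM. Of protein-coding symbols 58.5% reached 1 FPKM, with a median of 3.25 FPKM. Genes of terminal cornification differed: beside SPRR1B, its relative SPRR1A stood at 46.6 and 41.3 FPKM and SPRR3 at 6.01 and 5.21 FPKM. Involucrin (IVL) had 3.76 and 3.42 FPKM and filaggrin (FLG) 2.16 and 2.29 FPKM, and loricrin (LOR) and the transglutaminase TGM3 were listed at 0 in both libraries.

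Genes used to tell the basal-like from the classical tumour type were counted separately. Of the basal-like list 22 of 25 reached 1 FPKM with a median of 35.8 FPKM, and of the classical list 12 of 24 with a median of 0.786 FPKM; no test of the difference was made. Over all symbols the share was 45.2% and over the protein-coding ones 58.5%, so the classical count lay near the background. S100A2, a calcium-binding protein of basal epithelia (chr1:153533584-153540366, minus strand), stood at 1548 and 1459.9 FPKM, and the retinol dehydrogenase DHRS9 at 248 and 252 FPKM. FGFBP1, which releases fibroblast growth factors from the matrix, stood at 203 and 209 FPKM, and TNS4, a focal adhesion protein, at 126 and 123 FPKM. Classical members were led by CEACAM6, a surface adhesion glycoprotein, at 371 and 406 FPKM, AGR2, a disulfide isomerase of mucus-secreting cells, at 245 and 281 FPKM, and the annexin ANXA10 at 112 and 109.9 FPKM. Other classical genes were low: the trefoil peptides TFF1, TFF2 and TFF3 had 4.97 and 5.22 FPKM, 5.00 and 5.86 FPKM and 0.847 and 1.21 FPKM, respectively, and REG4, a secreted lectin, and CDH17, a gut cadherin, were listed at 0. KRT17, KRT7 and KRT6A belong to the basal-like list as well as to the keratins, so these counts are not independent of those above.

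The transcription factors behind these types were also mixed. FOSL1, an AP-1 subunit, stood at 122 and 129 FPKM and the epithelial ETS factors EHF and ELF3 at 68.2 and 71.00 FPKM and 39.00 and 35.5 FPKM. FOXA1, FOXA2 and GATA6, factors of foregut and gland, had 21.02 and 21.8 FPKM, 12.2 and 12.7 FPKM and 14.5 and 14.2 FPKM, respectively. The hepatocyte and pancreas factors HNF4A at 0.0964 and 0.165 FPKM and PDX1 at 0.0507 and 0.348 FPKM were both under 1 FPKM, and ONECUT1 was listed at 0. SOX9, which marks duct and progenitor cells, stood at 6.40 and 6.57 FPKM.

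**Figure D3:**
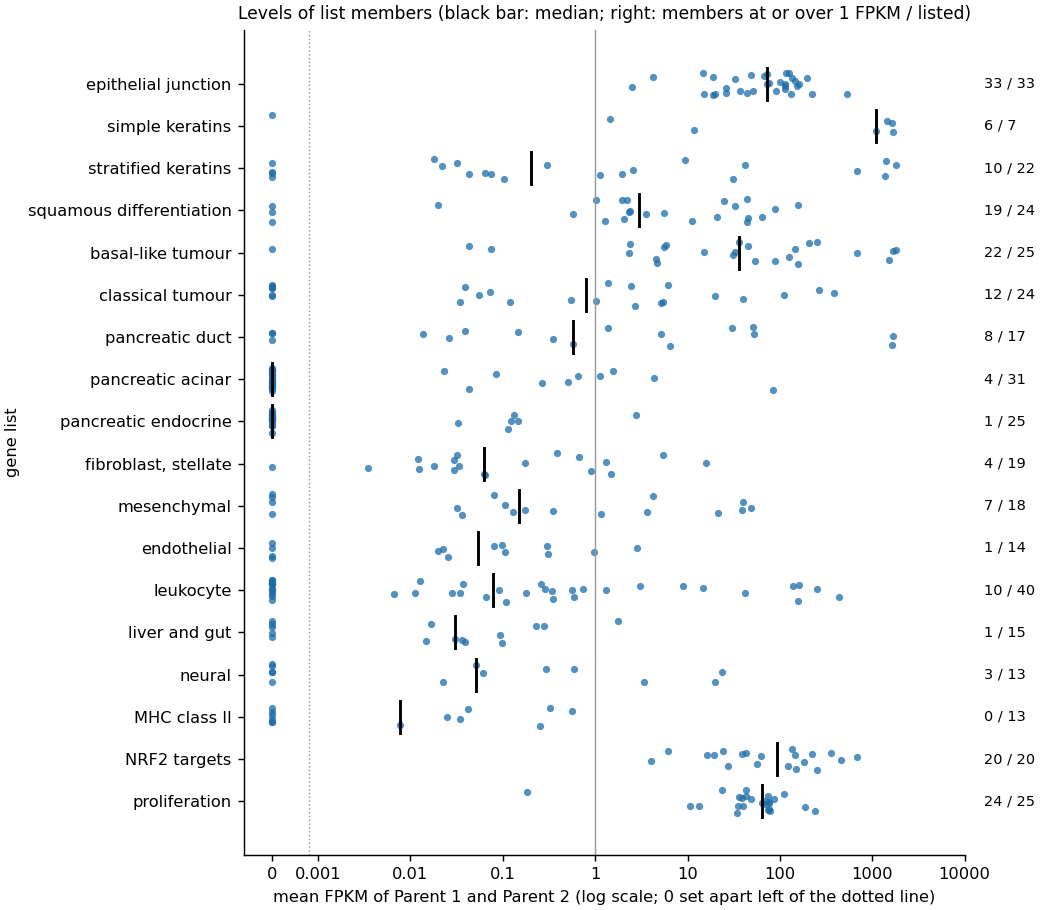
Mean FPKM (x axis, log scale, with 0 set apart at the left) of the members of 18 gene lists (y axis); each point is a gene, black bars are list medians, and the counts at the right give members at or over 1 FPKM over members listed. Epithelial and junction genes, NRF2 targets and proliferation genes lay almost wholly right of 1 FPKM, and acinar and endocrine genes mostly at 0.

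Genes of the acinar and endocrine cells of the normal pancreas were mostly low or at 0. In both libraries 33.3% of all symbols and 20.6% of the protein-coding ones were listed at 0. Of 31 acinar genes, which encode digestive enzymes and their factors, 4 reached 1 FPKM and 21 were listed at 0 in both libraries. The exception was PRSS3, a trypsinogen also made outside acini, at 87.7 and 82.5 FPKM; its close copy PRSS1 had 0.684 and 1.57 FPKM. The bile-salt lipase CEL had 4.27 and 4.44 FPKM, and pancreatic lipase (PNLIP), carboxypeptidase B (CPB1) and the acinar factor PTF1A were listed at 0. Of 25 endocrine genes 19 were listed at 0, among them insulin (INS), glucagon (GCG) and chromogranin A (CHGA), and ISL1, an islet and motor neuron factor, was the only member over 1 FPKM, at 2.94 and 2.63 FPKM. Of 17 duct genes 8 reached 1 FPKM, a share near the 45.2% of all symbols and under the 58.5% of protein-coding ones. Besides KRT7 and KRT19 the 8 included SPP1 (osteopontin) at 51.98 and 52.6 FPKM and the membrane mucin MUC1 at 30.2 and 30.5 FPKM. Some genes of duct secretion were low: carbonic anhydrase CA2 had 0.329 and 0.376 FPKM, the bicarbonate transporter SLC4A4 0.0244 and 0.0278 FPKM, and the chloride channel gene CFTR was listed at 0.

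Markers of stromal cells were mostly near 0, with a few mesenchymal genes present. FBLN1, an extracellular matrix protein, was the highest of 19 fibroblast and stellate genes at 16.6 and 15.3 FPKM, and the collagen genes COL1A1 and COL1A2 had 1.70 and 1.24 FPKM and 0.0115 and 0.0132 FPKM, respectively. Of 14 endothelial genes 1 reached 1 FPKM, the adhesion molecule ESAM at 2.85 and 2.81 FPKM, and PECAM1 (CD31) had 0.113 and 0.0810 FPKM. In the mesenchymal list 7 of 18 members reached 1 FPKM, against 58.5% of protein-coding symbols. Among the 7 were the receptor AXL at 40.9 and 39.2 FPKM, the repressor SNAI2 at 37.2 and 39.7 FPKM and vimentin (VIM) at 21.04 and 22.1 FPKM. The repressors ZEB1 and ZEB2 had 0.0735 and 0.0863 FPKM and 0.0335 and 0.0384 FPKM, respectively, and TWIST1 was listed at 0.

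Several genes best known from leukocytes were high. ARHGDIB, an inhibitor of nucleotide exchange on small GTPases, stood at 436 and 428 FPKM, and LAPTM5, a lysosomal membrane protein of blood cells (chr1:31205316-31230621, minus strand), at 249 and 252 FPKM. RAC2, a GTPase of blood cells, stood at 169.5 and 156 FPKM, the actin bundler LCP1 at 155 and 155 FPKM, and HCLS1, a cortactin relative, at 140.4 and 138 FPKM. CORO1A (coronin) followed at 44.1 and 39.4 FPKM and the tyrosine kinase LCK at 9.14 and 8.88 FPKM. Other leukocyte markers accompanied them only in part. CD68 had 13.997 and 15.3 FPKM, ITGB2 3.19 and 2.88 FPKM and CD14 1.22 and 1.403 FPKM, respectively. The remaining members of the list had means under 1 FPKM. PTPRC (CD45) had 0.0253 and 0 FPKM, and SPI1, TYROBP, CD37, CD2, MS4A1 and VAV1 were listed at 0 in both libraries. Of the 40 leukocyte genes 10 reached 1 FPKM, with a median of 0.0780 FPKM, where 58.5% of protein-coding symbols reached 1 FPKM.

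Most of the listed surface molecules were measured. F3, tissue factor, the starter of blood coagulation (chr1:94994729-95007315, minus strand), stood at 646 and 667 FPKM, near the tetraspanin CD63 at 647 and 659.7 FPKM and basigin (BSG) at 646 and 598 FPKM, and its range overlapped both of theirs. The related tetraspanins CD9 and CD81 had 309 and 302 FPKM and 0.0511 and 0 FPKM, respectively. Of 42 surface antigens 36 reached 1 FPKM, with a median of 46.2 FPKM, where 45.2% of all symbols reached 1 FPKM. Glypican GPC1 stood at 152 and 139 FPKM, the ectonucleotidase NT5E at 67.9 and 69.00 FPKM, mesothelin (MSLN) at 12.4 and 10.2 FPKM, and the checkpoint ligand CD274 at 5.37 and 5.55 FPKM. CLDN18, a stomach claudin, had 0.229 and 0.131 FPKM. Of the CEACAM family 3 of 12 reached 1 FPKM, with CEACAM5 at 99.6 and 101 FPKM and CEACAM1 at 23.6 and 23.6 FPKM behind CEACAM6. Of 16 mucins 4 did; MUC4 stood at 19.99 and 20.9 FPKM, and the gel-forming MUC5AC and MUC5B at 0.609 and 0.685 FPKM and 0.0747 and 0.0622 FPKM, respectively.

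Genes used as stem cell markers differed widely in level. CD24 and CD44 stood at 176 and 185 FPKM and 176 and 182 FPKM, and the adhesion molecule EPCAM at 98.6 and 103 FPKM. CXCR4 had 0.0408 and 0.0468 FPKM, the kinase DCLK1 0.00821 and 0.0363 FPKM, the Wnt-responsive receptor LGR5 0 and 0.0335 FPKM, and PROM1 (CD133) was listed at 0 in both libraries. Among aldehyde dehydrogenases, the enzymes behind the ALDEFLUOR stem cell assay, ALDH3A1 (chr17:19641297-19652256, minus strand) stood at 541 and 540.3 FPKM (541 ± 0.820) and ALDH1A3, a retinoic acid producer, at 357 and 363 FPKM. ALDH1A1, the member most often used as the stem cell marker, had 1.19 and 0.953 FPKM. ALDH3A1 and ALDH1A3 held most of the family's signal, and the third highest, ALDH18A1 of proline synthesis, had 36.1 and 36.1 FPKM. Of 19 members 15 reached 1 FPKM, where 58.5% of protein-coding symbols did.

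Of 14 antigen presentation genes of class I 13 reached 1 FPKM, where 58.5% of protein-coding symbols did, and HLA-G was listed at 0. No class II gene reached 1 FPKM. Beta-2-microglobulin (B2M), the light chain of class I molecules, stood at 1516 and 1598 FPKM, HLA-C at 81.1 and 74.4 FPKM, HLA-E at 76.5 and 70.04 FPKM and HLA-B at 29.5 and 27.5 FPKM. The peptide transporter subunits TAP1 and TAP2 had 26.3 and 22.9 FPKM and 28.5 and 25.6 FPKM, respectively. Of the 13 class II genes 6 were listed at 0 and the others were low, such as CD74, the invariant chain, at 0.594 and 0.535 FPKM, and the class II master factor CIITA had 0 and 0.0155 FPKM. HLA genes differ from the reference sequence in many lines, and the effect of this on their levels was not tested.

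Several integrins and laminins of the hemidesmosome and basement membrane were high, while other chains of both families were under 1 FPKM. The integrin beta-1 chain ITGB1 stood at 402 and 428 FPKM, its laminin-binding partners ITGA3 and ITGA6 at 303 and 285 FPKM and 189 and 189.9 FPKM, and the hemidesmosome chain ITGB4 at 153 and 142 FPKM. Leukocyte chains ITGAL and ITGAX had 0.0379 and 0 FPKM and 0.0134 and 0 FPKM, respectively. ITGB2, ITGAE and ITGB7, also leukocyte chains, had 3.19 and 2.88 FPKM, 2.65 and 2.67 FPKM and 2.69 and 1.63 FPKM, respectively. LAMA3 and LAMB3, chains of the anchoring laminin of epithelia, stood at 85.6 and 85.6 FPKM and 79.8 and 75.3 FPKM, respectively. LAMB2, a laminin chain of vessels and kidney, was listed at 0 in both libraries while LAMB1 stood at 109 and 106 FPKM.

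Of 58 receptor tyrosine kinases 26 reached 1 FPKM, 16 reached 10 FPKM and 13 were listed at 0, against 45.2%, 25.2% and 33.3% of all symbols. The share at or over 1 FPKM was thus near that of all symbols, but under the 58.5% of protein-coding symbols. The share at 0 was near the 20.6% of protein-coding symbols. The collagen receptor DDR1 (chr6:30844198-30867933, plus strand) was highest at 125 and 121 FPKM. MET, the receptor of hepatocyte growth factor (chr7:116312250-116438431, plus strand), at 115 and 117 FPKM and the ephrin receptor EPHA2 at 115 and 105 FPKM followed it and were not ordered, since their ranges meet. EPHB4 stood at 77.01 and 70.7 FPKM, the epidermal growth factor receptor EGFR at 68.2 and 63.2 FPKM, and MST1R (RON), the relative of MET, at 39.8 and 37.5 FPKM. ERBB2 and ERBB3 had 20.95 and 19.6 FPKM and 20.2 and 18.9 FPKM, respectively, and were not ordered, while ERBB4 had 0.00514 and 0 FPKM. The insulin-like growth factor receptor IGF1R stood at 11.4 and 10.4 FPKM and the insulin receptor INSR at 0.211 and 0.250 FPKM. Receptors of other tissues such as KIT, FLT3, KDR, RET and ALK were listed at 0.

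Ligands for some of these receptors were measured and others were near 0 or listed at 0. The ephrin EFNB1, a ligand of EPHB receptors, stood at 178 and 167 FPKM, and VEGFA, the vascular growth factor, at 69.1 and 67.8 FPKM. EGFR ligands were present as HBEGF at 49.3 and 44.96 FPKM, TGFA at 29.3 and 28.8 FPKM, EREG at 14.4 and 15.2 FPKM and AREG at 5.77 and 6.02 FPKM, while EGF itself had 0.0229 and 0.0655 FPKM. The MET ligand HGF, IGF1 and FGF2 were listed at 0 in both libraries, and MST1, the ligand of MST1R, had 0.395 and 0.517 FPKM. Of 37 ligands 21 reached 1 FPKM, a share near the 58.5% of protein-coding symbols, with a median of 2.14 FPKM.

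**Figure D4:**
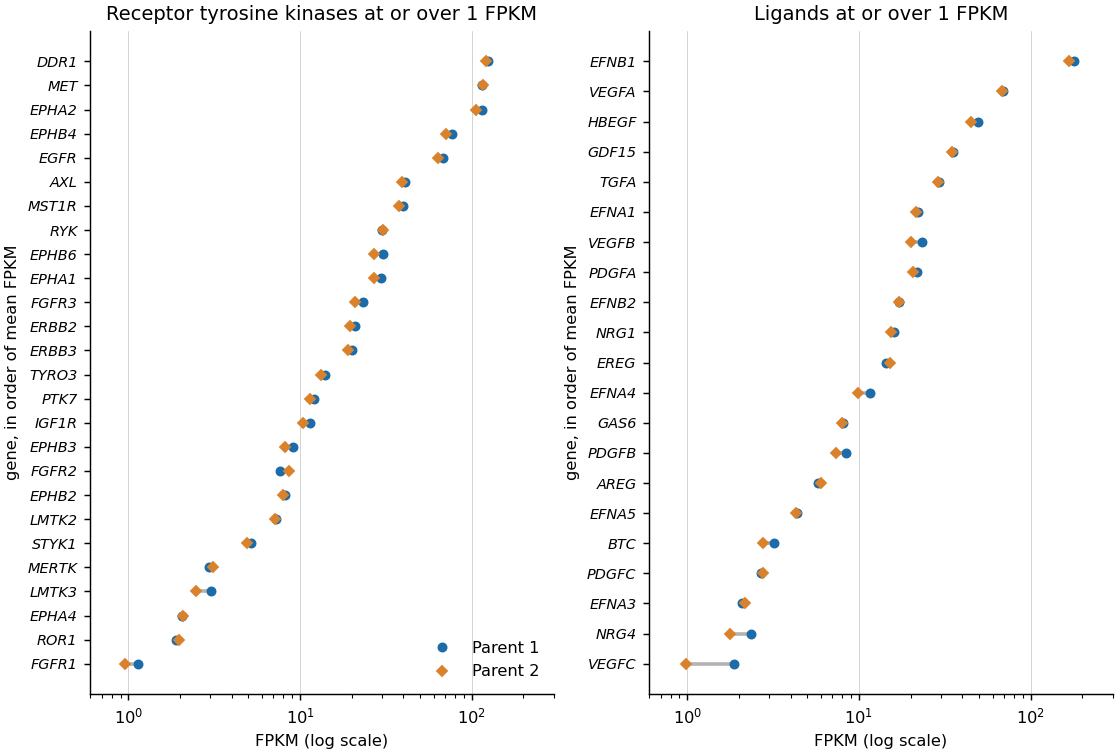
Levels (x axes, FPKM, log scale) of the 26 receptor tyrosine kinases and 21 ligands at or over 1 FPKM (y axes, in order of mean); circles are Parent 1, diamonds Parent 2, and bars join them. DDR1, MET and EPHA2 led the receptors and EFNB1 the ligands, and the ranges of 10 of 25 neighbouring receptor pairs overlapped.

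In the TGF-beta pathway the receptors and receptor-activated SMADs were measured without their common partner. TGFBR2 stood at 43.7 and 43.6 FPKM and TGFBR1 at 5.83 and 6.73 FPKM. SMAD3 stood at 58.4 and 56.04 FPKM, SMAD2 at 6.81 and 7.62 FPKM, and the inhibitory SMAD7 at 3.26 and 3.42 FPKM. SMAD4 was listed at 0 in both libraries. The ligand TGFB1 stood at 62.9 and 59.2 FPKM.

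Of 40 cytokine receptors 26 reached 1 FPKM, where 58.5% of protein-coding symbols did. They were led by IL1RL1, the receptor of interleukin-33, at 131 and 129.5 FPKM. Its accessory chain IL1RAP stood at 14.3 and 15.6 FPKM and its ligand IL33 at 6.51 and 6.43 FPKM. IL4R, IL13RA1 and OSMR, receptors for interleukin-4, interleukin-13 and oncostatin M, had 48.9 and 46.5 FPKM, 41.8 and 43.5 FPKM and 47.1 and 45.2 FPKM, respectively. IL2RG, the common gamma chain of lymphocyte receptors, stood at 20.4 and 21.2 FPKM, while IL2RB had 0.110 and 0.0358 FPKM. Of 29 receptors of the tumour necrosis factor family 18 reached 1 FPKM, a share near the 58.5% of protein-coding symbols. TNFRSF12A, the TWEAK receptor, stood at 357 and 313 FPKM, TNFRSF21 at 170.4 and 178 FPKM, and the soluble decoy TNFRSF6B at 165 and 149 FPKM. None of 19 chemokine receptors reached a mean of 1 FPKM, although ACKR3, at 0.824 and 1.05 FPKM, did so in Parent 2 alone. Chemokines were measured at modest levels, such as CXCL16 at 19.8 and 18.5 FPKM and CXCL8 at 5.24 and 8.75 FPKM, and interleukins IL1B, IL18 and IL1A stood at 57.8 and 54.3 FPKM, 56.01 and 55.4 FPKM and 38.9 and 41.6 FPKM, respectively.

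Among receptors of the developmental pathways, the Wnt receptor FZD6 and coreceptor LRP5 stood at 60.6 and 64.9 FPKM and 64.6 and 58.9 FPKM and were not ordered. NOTCH2 and NOTCH1 had 21.02 and 20.9 FPKM and 14.3 and 12.8 FPKM, respectively. The hedgehog signal transducer SMO was listed at 0 in both libraries, and the hedgehog receptor PTCH1 had 1.77 and 2.34 FPKM. Nuclear receptors reached 1 FPKM for 26 of 48 members, a share near the 58.5% of protein-coding symbols. ESRRA stood at 62.8 and 55.7 FPKM, the retinoic acid receptor RARG at 50.7 and 49.7 FPKM, and the lipid sensor PPARG at 24.2 and 25.04 FPKM. The oestrogen receptor ESR1 had 0.325 and 0.248 FPKM, and the progesterone receptor PGR was listed at 0.

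Proteases and their inhibitors were abundant. The collagenase MMP1 stood at 317 and 316 FPKM and the membrane-type metalloprotease MMP14 at 316 and 294 FPKM, while MMP2, the gelatinase that MMP14 activates, had 0.0409 and 0.0234 FPKM. Urokinase (PLAU) stood at 185 and 188 FPKM with its receptor PLAUR at 64.5 and 58.4 FPKM. The metalloprotease inhibitor TIMP1 stood at 439 and 437 FPKM, the leukocyte protease inhibitor SLPI at 248 and 245 FPKM, and the serpin SERPINB5 (maspin) at 143 and 152 FPKM. Of 32 proteases 24 and of 24 inhibitors 20 reached 1 FPKM, where 58.5% of protein-coding symbols did. Their medians were 31.2 and 38.9 FPKM, respectively. In the S100 family 11 of 20 members reached 1 FPKM, a share near the 58.5% of protein-coding symbols. S100A6 stood at 942 and 945 FPKM and S100P at 227 and 218 FPKM. S100A9 stood at 85.4 and 81.7 FPKM without its usual partner S100A8 at 0.187 and 0.858 FPKM.

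Glycolysis and redox genes were high. The glycolysis list held 2.68% and 2.67% of all FPKM, with PKM (pyruvate kinase) at 2422 and 2391 FPKM, ENO1 (enolase) at 1834 and 1762 FPKM and ALDOA (aldolase) at 1628 and 1578 FPKM behind GAPDH. The lactate dehydrogenase chains LDHB and LDHA stood at 681 and 685 FPKM and 425 and 439.6 FPKM, respectively. The glucose transporter SLC2A1 stood at 147 and 145 FPKM, and SLC2A3 was listed at 0. All 20 listed targets of NRF2, the factor that answers oxidative stress, reached 1 FPKM, with a median of 91.9 FPKM. Of protein-coding symbols 58.5% reached 1 FPKM. Thioredoxin (TXN) stood at 669 and 683 FPKM, the pentose phosphate enzyme TKT at 478 and 442 FPKM, and GPX2, a gut-type glutathione peroxidase, at 242 and 257 FPKM. The aldo-keto reductases AKR1C1, AKR1C3 and AKR1B10 had 212 and 228 FPKM, 139.9 and 155 FPKM and 138 and 149.8 FPKM, respectively, though the AKR1C genes are close copies. In the aryl hydrocarbon receptor group, AHR stood at 33.7 and 35.4 FPKM, and its target CYP1B1 at 18.4 and 19.6 FPKM while CYP1A1 had 1.12 and 0.887 FPKM.

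Cell cycle genes were measured almost throughout. Of 25 proliferation genes 24 reached 1 FPKM, with a median of 63.7 FPKM, where 58.5% of protein-coding symbols reached 1 FPKM. PCNA, the sliding clamp of DNA replication, stood at 234 and 249.6 FPKM, the replicative helicase subunit MCM7 at 189 and 185 FPKM, the mitotic cyclin CCNB1 at 111 and 108 FPKM and MKI67 at 76.04 and 73.8 FPKM. CCND2 was the member under 1 FPKM, at 0.171 and 0.196 FPKM. Of the 29 genes recurrently altered in this cancer 26 reached 1 FPKM, to be read beside the same 58.5%. HRAS stood at 59.7 and 53.8 FPKM and the G protein GNAS at 685 and 686 FPKM. The kinase MAP2K4 had 0.496 and 0.530 FPKM, and CDKN2A and SMAD4 were listed at 0. RNA levels do not show whether a gene carries a mutation.

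Both genes listed at 0 lay in runs of neighbours at 0. Around CDKN2A (chr9:21967751-21995300, minus strand, GRCh37), 23 protein-coding genes in a row on chromosome 9, from IFNB1 to IZUMO3 (chr9:21077103-24545944), were listed at 0 in both libraries. Most are interferon genes that resting cells do not use, but the run also held MTAP, a widely used enzyme of methionine salvage, KLHL9, a ubiquitin ligase adaptor, and CDKN2B, another kinase inhibitor. The flanking genes were HACD4 at 0.0990 and 0.113 FPKM with FOCAD beyond it at 6.91 and 6.54 FPKM, and TUSC1 at 5.01 and 4.10 FPKM. Around SMAD4 (chr18:48554898-48611415, plus strand), 6 genes in a row on chromosome 18, from MAPK4 to MEX3C (chr18:48086457-48744703), were listed at 0. They included ME2, a mitochondrial malic enzyme, ELAC1, a tRNA processing enzyme, and MEX3C, an RNA-binding ubiquitin ligase. The neighbours were SKA1, a kinetochore protein, at 8.78 and 8.76 FPKM, and DCC at 0.00601 and 0.0206 FPKM with MBD2 beyond it at 17.3 and 17.7 FPKM. The files hold no DNA measurement, so a lost gene and a silent gene cannot be told apart from these values alone.

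The whole annotation was scanned in the same way. Of 18049 protein-coding genes placed on GRCh37, 3749 were listed at 0 in both libraries, and they formed 287 runs of 3 or more. In 14 runs at least 3 genes had a promoter with a CpG ratio of 0.75 or more, a feature of many but not only of widely used genes. Of the 8451 placed genes with such a promoter, 680 were listed at 0. The SMAD4 run, with 5 such genes, was among the 14, and the CDKN2A run, with 2, was not. The 14 also held a chromosome Y run of 37 genes, 8 with such promoters, and a run of IRX4, IRX2 and IRX1. Another of the 14 lay on chromosome 21 from TMPRSS2 to UMODL1 (chr21:42836227-43563563), 6 genes including the epithelial kinase RIPK4, C2CD2 and the zinc finger gene ZBTB21, between MX1 at 6.91 and 7.09 FPKM and ABCG1 at 0.265 and 0.296 FPKM. A further run held WNT2, CFTR, ASZ1 and CTTNBP2 (chr7:116915505-117514193), between ST7 at 16.2 and 17.1 FPKM and LSM8 at 2.22 and 2.63 FPKM. The run with the most such genes, 9 of 15, covered the first pseudoautosomal region, from PLCXD1 to CD99, and held the mitochondrial carrier SLC25A6 and the surface protein CD99. Its sequence occurs on both sex chromosomes of the reference, and all 15 of its genes were listed at 0.

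A listed 0 is thus not by itself a silent gene. EIF3C, a translation initiation factor with a near-identical copy, had 0.0377 and 0.0378 FPKM while the copy EIF3CL had 7.35 and 5.69 FPKM. Among genes of other machinery that every cell needs, 0 of 12 RNA polymerase II subunits, 0 of 77 mitochondrial ribosomal proteins, 0 of 37 NADH dehydrogenase subunits and 0 of 17 cytosolic aminoacyl-tRNA synthetases were listed at 0.

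**Figure D5:**
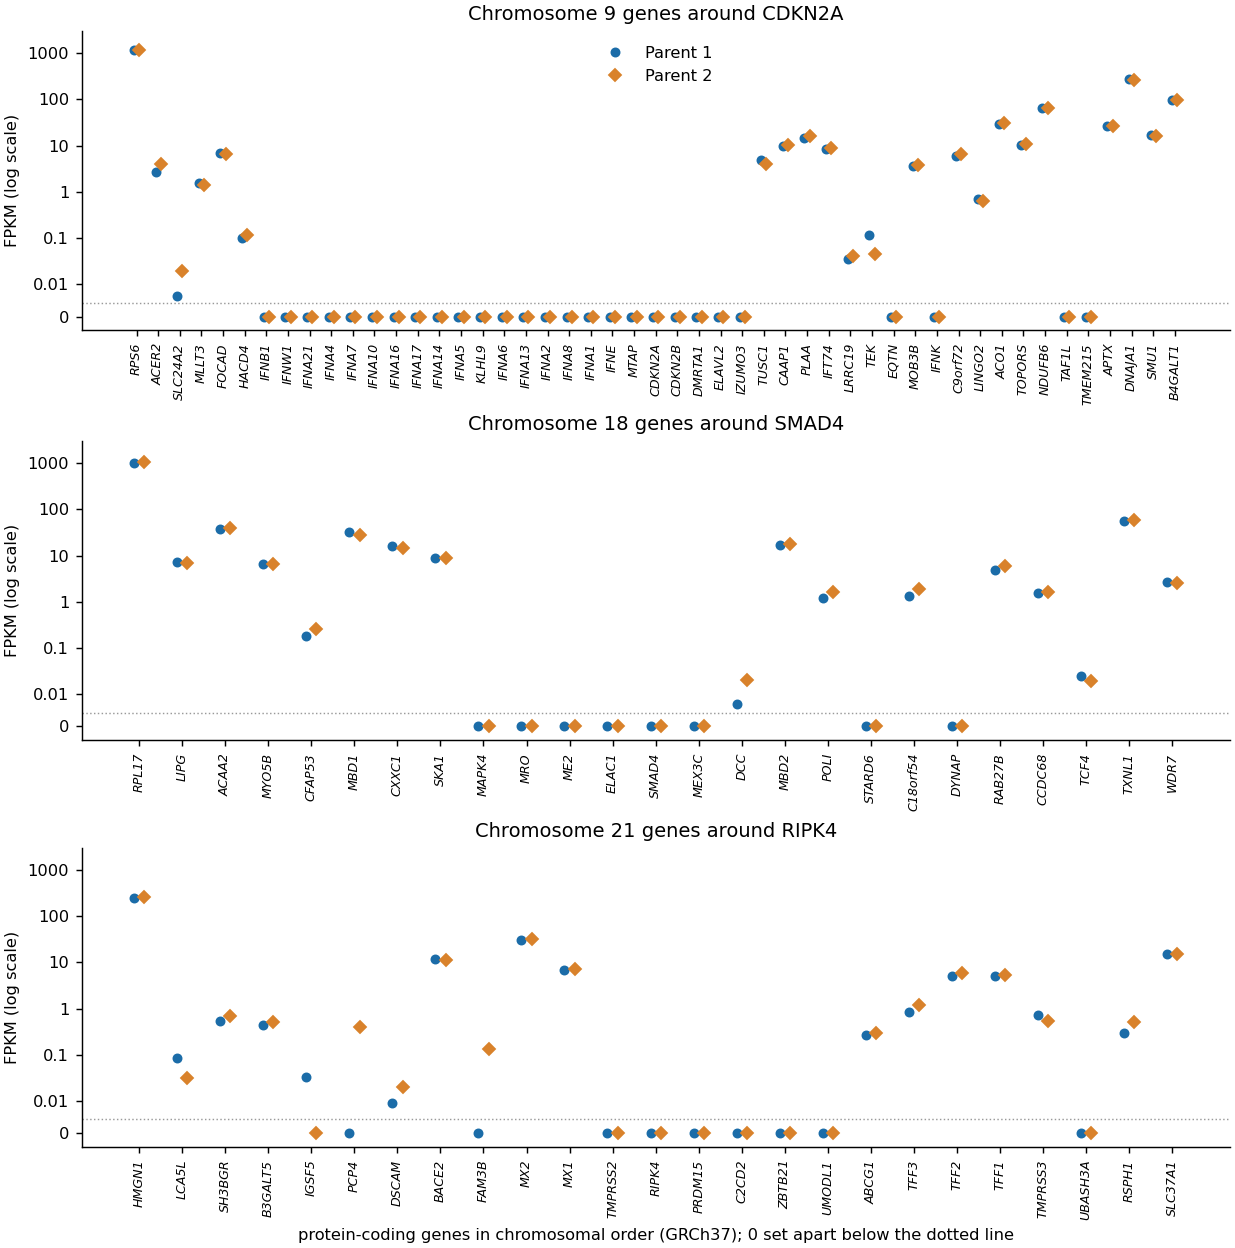
Levels (y axes, FPKM, log scale, with 0 set apart at the bottom) of protein-coding genes in chromosomal order (x axes) around CDKN2A, SMAD4 and RIPK4; circles are Parent 1, diamonds Parent 2. Runs of 23, 6 and 6 genes at 0 in both libraries lay between neighbours above 0, of which HACD4, DCC and ABCG1 were under 1 FPKM.

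The promoters of the genes listed at 0 in these runs are shown for their CpG content, as 30 bases ending just before the start site (RefSeq, GRCh38.p14, 5′ to 3′, with each CG dinucleotide in capitals). SMAD4, ELAC1 and C2CD2 are examples from CpG-rich promoters, and MTAP is an example just under the ratio of 0.75.
SMAD4 (chr18:51030183-51030212, plus strand): aaattaccCGgatgtggtcccCGCGCGCGc
ELAC1 (chr18:50968010-50968039, plus strand): gcCGgCGgCGcacttcCGccCGggCGcatt
C2CD2 (chr21:41954019-41954048, minus strand): acCGccccCGcccCGcccCGcccCGCGgcc
MTAP (chr9:21802606-21802635, plus strand): gaagaggaggagtcaaggccCGcccctggt

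Over the 300-base promoters (250 bases before to 50 after the start), the CpG ratio, the number of CG dinucleotides over that expected from the base content, was 0.842 for SMAD4, 0.936 for ELAC1, 0.846 for this promoter of C2CD2 and 0.715 for MTAP. Of all 23809 promoters matched to 17296 symbols, 47.2% had a ratio of 0.75 or more. The share was 19.9% for symbols listed at 0 in both libraries, 32.5% for those above 0 and under 1 FPKM, 57.4% from 1 to 10, 66.6% from 10 to 100, 64.3% from 100 to 1000 and 77.8% at or over 1000 FPKM. SMAD4, ELAC1 and C2CD2 were chosen as examples by this ratio, so it is no result about them. The ratio was 0.175 for the other promoter of C2CD2 and 0.629 at most for MRO of the SMAD4 run. In the CDKN2A run it was 0.686 for KLHL9 and 0.736 for CDKN2B.

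The TATA box, a core promoter element, was distributed differently over the levels. The letters TATAAA were searched on the gene's strand between 40 and 21 bases before the start site. They were found in 5.25% of promoters of symbols at 0, in 3.56% above 0 and under 1 FPKM, in 1.71% from 1 to 10 FPKM, in 1.20% from 10 to 100, in 3.50% from 100 to 1000 and in 6.94% (5 of 72) at or over 1000 FPKM, and in 2.80% of all promoters. Examples of high genes that hold it are shown as the bases from 41 to 12 before the start, with TATAAA in capitals; KRT5, whose window does not hold these letters, is shown for contrast in lower case.
MT2A (chr16:56608543-56608572, plus strand): gctctttctagcTATAAAcactgcttgccg
AQP3 (chr9:33447605-33447634, minus strand): cagcgctccTATAAAgggagccaccagcgc
ANXA1 (chr9:73151824-73151853, plus strand): tttaaaatccTATAAAatcagaagcccaag
S100P (chr4:6693837-6693866, plus strand): tatgaggctgcctTATAAAgcaccaagagg
KRT5 (chr12:52520406-52520435, minus strand): gttctggaagggataaaaagggggcatcac

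MT2A and AQP3, both over 1000 FPKM by their mean, combined TATAAA with CpG ratios of 0.962 and 0.757. ANXA1 at 481 and 500.2 FPKM and S100P had CpG ratios of 0 and 0.213. Of the 11 stratified keratins with a promoter, 4 held TATAAA, and these were KRT10 at 8.53 and 10.02 FPKM, KRT3 at 0.171 and 0.0327 FPKM, KRT24 at 0.107 and 0.0410 FPKM and KRT76, listed at 0. None of the 4 is among the keratins at or over 100 FPKM, but KRT17, KRT13 and KRT7 had no promoter sequence to search. Variants of these letters were not searched, so whether the high keratins hold a TATA box was not tested. Of the promoters of listed NRF2 targets, 6 of 17 held TGACNNNGC on either strand, against 13.9% of all promoters. A match of letters describes the sequence only and is not evidence of a bound site.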

How the data were processed

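Total RNA of BxPC-3 cells was made into stranded poly(A) libraries by the authors, and the reads were mapped to hg19. The deposited values are FPKM per gene symbol, which the authors computed with the Cufflinks tools; the submitters' processing notes list TopHat2 2.1.1, Bowtie2 2.3.5.1, SAMtools 1.2 and Cufflinks 2.2.1, whereas the study's methods give other versions of the mapping tools. The annotation is not given in the sources used here, and the depth is unknown beyond the relative depth of the 2 libraries.

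The 2 Parent libraries were used as deposited, with no filter. Symbols were ranked by mean FPKM in Python 3.11.15 with pandas 2.3.3, and the steps were tested on simulated data. Symbols were matched to RefSeq by symbol (23523) or unique synonym (1569), and placed on GRCh37 by GENCODE release 44 lifted to that build, the build of the files. Members of 51 gene lists were counted at 1 and 10 FPKM, beside the same counts over all symbols. Named were the 30 highest symbols, the 30 highest protein-coding symbols outside translation, list members (the highest and those at 0), their chromosomal neighbours, and the 5 symbols over 10 FPKM with the largest ratio between libraries. The chromosome 7, 21 and pseudoautosomal runs and the examples of gene copies were chosen after their values were seen. The members and lists were chosen with earlier results of these data known. With 2 libraries in a single group no test was made. Values of some listed genes are not reported here. Alternatives were each library alone, other scales, other levels and leaving out short RNAs.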

Additional observations from a re-analysis of the deposited data

How the results depend on the processing

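With each library alone, the number of symbols at or over 1 FPKM was 11855 to 11861, at or over 10 FPKM 6590 to 6601, and at 0 was 9570 to 9658, against 8731 at 0 in both. The share of the 10 highest symbols was 6.99% to 7.12%, and 29 to 30 of the 30 highest symbols were shared with the order by the mean. List members at or over 1 FPKM, 585 over all lists, numbered 580 to 582. Rescaling by the median of ratios gave 585 and the TPM scale 613. The median absolute log2 ratio of the libraries was 0.08 over symbols at or over 1 FPKM, 0.09 with a pseudocount of 0.1, 0.07 at or over 10 FPKM, and 0.0353 without a filter, where the many symbols at or near 0 give small differences by construction. Of the 51 lists, 29 kept their count on the TPM scale and 26 at a level of 0.5 FPKM, and no list moved by more than 3 members under any of the alternatives run. Over all lists and alternatives, 10 counts differed from the main count by more than 1.5 times and 296 did not; the 10 were those of chemokine receptors, erythroid and class II genes, each 0 against 1, and endothelial genes, 1 against 2. No paired analysis was possible because a single group was described and no comparison between groups was made.

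Values rest on 2 libraries whose depth in reads is not in the files. The sharing of reads between genes with close copies was not tested. FPKM shares depend on the transcripts that poly(A) selection and the annotation retain, and short RNAs are not measured by them.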

Other observations

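Other gene groups of the untreated line were described by the same measure. Cancer-testis genes, which are normally kept to the germ line, were at 0 for 15 of 29 members, but MAGEA3 stood at 79.5 and 78.1 FPKM, MAGEA6 at 53.96 and 52.4 FPKM, MAGEA1 at 44.1 and 45.5 FPKM and MAGEA12 at 21.6 and 20.5 FPKM. MAGEA3 and MAGEA6 are close copies, so their separate values are uncertain. MAGEA4, PRAME and CTAG1B were listed at 0 in both libraries. Of 39 HOX genes, which set position along the body axis, 14 reached 1 FPKM, against 58.5% of protein-coding symbols. HOXB7 stood at 18.7 and 17.6 FPKM, HOXA3 at 15.8 and 17.7 FPKM and HOXA10 at 15.1 and 17.8 FPKM, and these 3 lay close together. No HOXD gene reached 1 FPKM. Of the toll-like receptors 3 of 10 reached 1 FPKM, led by TLR4 at 7.11 and 7.86 FPKM, and 3 of 13 neural genes did, among them myelin basic protein (MBP) at 23.7 and 23.02 FPKM and the tubulin TUBB3 at 20.1 and 19.7 FPKM. Of 15 liver and gut genes 1 reached 1 FPKM, the gut mucin MUC2 at 1.79 and 1.77 FPKM, and albumin (ALB) had 0.0294 and 0 FPKM. No erythroid gene of 6 reached a mean of 1 FPKM, although the globin gene HBA1 had 1.04 and 0.170 FPKM, over that level in Parent 1 alone. Of 12 annexins 11 did, with ANXA5, which binds phosphatidylserine, at 293 and 291 FPKM, and ANXA13 was listed at 0.

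Among long non-coding RNAs, PCNA-AS1, which overlaps PCNA on the opposite strand, stood at 381 and 350.1 FPKM, and the strand option of the counting is not given in the sources used here, so reads of PCNA and of PCNA-AS1 cannot be told apart. The snoRNA hosts SNHG5 and ZFAS1 stood at 298 and 311 FPKM and 222 and 217 FPKM, respectively. H19, an imprinted transcript that is the host of MIR675, stood at 61.02 and 55.5 FPKM. MIR205HG, host of miR-205, an epithelial miRNA of stratified tissues, stood at 119.9 and 121 FPKM, while the hairpin symbol MIR205 was listed at 0. MIR31HG, host of miR-31, lies in the chromosome 9 run and was listed at 0. Mature miRNAs were not measured in these poly(A) libraries; the mature sequences of both (RefSeq, GRCh38.p14, 5′ to 3′, with the seed, bases 2 to 8, in capitals) are given to identify them.
miR-205-5p (chr1:209432166-209432187, plus strand): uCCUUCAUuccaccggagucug
miR-31-5p (chr9:21512158-21512178, minus strand): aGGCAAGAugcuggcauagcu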
